A study of Mus musculus with 12 samples.

Results

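The T cell receptor complex and its proximal kinases were followed through 9 genes: the CD3 chains Cd3e, Cd3d and Cd3g, the zeta chain Cd247, the co-receptor chains Cd8a and Cd8b1, the kinases Lck and Zap70, and the adaptor Lat. They were taken by name, as the rows of the count table with these symbols, with earlier results of these data known. All 9 were found among the 13780 genes of the table, no symbol occurred more than 1 time, and all 9 passed the filter on low counts. RNA-seq was measured in 12 libraries of CD8+ T cells from the spleens of C57BL/6J mice aged 8 to 12 weeks, 4 libraries in each of 3 groups. Naïve cells (non-activated, no treatment) were frozen directly after isolation. The other groups were activated for 72 h on Dynabeads that carry antibodies to CD3 and CD28, with IL-2 at 10 U/ml, either in plain media (vehicle, called media here) or with 40 mM sodium lactate (lactate). The activation label of the samples gives CD3 and CD8 as targets of the beads, where the protocols give CD3 and CD28. Neither activated group received sodium chloride, so sodium and osmolarity differ between them along with lactate and cannot be told apart from it. The cells were isolated by positive selection on CD8, so the level of the co-receptor genes describes cells that were picked for carrying CD8, and the cultures were made from whole selected populations rather than from a clone.

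In a T cell, the antigen-binding receptor chains have no signaling part of their own and are held at the surface by the CD3 chains and the zeta chain, whose tails carry the tyrosine motifs that are phosphorylated on activation. CD8 binds MHC class I and brings the kinase LCK to the receptor, LCK phosphorylates the tails, and ZAP-70 docks on them. ZAP-70 then phosphorylates the adaptor LAT, on which the downstream enzymes assemble.

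The CD3 genes form a cluster on chromosome 9 of the mouse genome (GRCm38). Cd3g (ENSMUSG00000002033, chr9:44969572-44980431, minus strand) and Cd3d (ENSMUSG00000032094, chr9:44981786-44987339, plus strand) point away from each other, and their start sites lie 1355 bases apart. Cd3e (ENSMUSG00000032093, chr9:44998740-45009627, minus strand) starts 27841 bases from the start of Cd3d. Cd247 (ENSMUSG00000005763, chr1:165788681-165877277, plus strand) lies on another chromosome. The promoters of these 4 genes are shown because the 3 clustered genes moved together in the comparisons and Cd247 did not move with them after activation. Each run is the 250 bases before the RefSeq start of the gene (GRCm38.p6), read 5′ to 3′ on the strand of the gene, with the core of the ETS motif (GGAA, or TTCC where it is on the other strand) in capitals. The windows are chr9:45009612-45009861 for Cd3e, chr9:44981536-44981785 for Cd3d, chr9:44980432-44980681 for Cd3g and chr1:165788431-165788680 for Cd247.
Cd3e: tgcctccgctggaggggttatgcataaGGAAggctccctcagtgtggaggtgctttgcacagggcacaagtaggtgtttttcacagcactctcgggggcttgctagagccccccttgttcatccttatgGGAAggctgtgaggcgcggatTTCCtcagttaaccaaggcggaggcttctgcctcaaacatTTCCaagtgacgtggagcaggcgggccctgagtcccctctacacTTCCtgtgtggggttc
Cd3d: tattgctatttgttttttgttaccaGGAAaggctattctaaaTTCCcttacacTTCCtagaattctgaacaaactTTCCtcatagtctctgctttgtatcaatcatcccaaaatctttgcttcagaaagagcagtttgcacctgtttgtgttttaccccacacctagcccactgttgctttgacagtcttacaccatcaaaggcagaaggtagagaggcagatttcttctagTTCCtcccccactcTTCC
Cd3g: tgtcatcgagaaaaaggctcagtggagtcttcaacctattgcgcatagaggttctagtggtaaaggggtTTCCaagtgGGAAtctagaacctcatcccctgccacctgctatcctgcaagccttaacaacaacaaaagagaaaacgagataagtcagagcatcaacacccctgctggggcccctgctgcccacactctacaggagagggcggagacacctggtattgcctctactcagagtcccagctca
Cd247: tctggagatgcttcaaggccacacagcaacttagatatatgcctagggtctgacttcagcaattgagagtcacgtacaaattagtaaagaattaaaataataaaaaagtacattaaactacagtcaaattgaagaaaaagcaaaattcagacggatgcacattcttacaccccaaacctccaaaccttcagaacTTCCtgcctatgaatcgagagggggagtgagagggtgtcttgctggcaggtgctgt

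The window held 5 ETS cores in Cd3e, 6 in Cd3d, 2 in Cd3g and 1 in Cd247. Of the 9 genes, 8 matched an entry by symbol, with 11 start sites in all, and Cd8b1 did not. A GGAA core on either strand was found at 10 of the 11 starts, as in 93.4% of the 32851 mouse promoter windows of this length, so its presence sets none of them apart. A RUNX core (TGTGGT, either strand) was found at 2 of the 11 starts, 1 of Lck and 1 of Zap70, against 14% of all windows. An E-box (CANNTG) was found at 10 of the 11 starts, against 66.2% of all windows. A TATA box (TATAAA, either strand) was found at 0 of the 11 starts, against 12.4%. These are counts of letters in the reference sequence and not measurements of binding.

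Total counts per library ran from 14726904 to 21478137, and the test covered the 13767 genes that reached 1 CPM (a count scaled to the size of the library) in at least 3 libraries. Naïve replicate 4 stood apart from the other naïve libraries. Across genes, its log2 CPM correlated at 0.947 to 0.953 with theirs, while the remaining naïve pairs reached 0.985, and it is the 1 naïve library of the high run of library numbers. Its gamma-delta T cell markers (Trdc, Trgc1, Trgc2) summed to 8.63 CPM, against 268.1 to 356 CPM in the other naïve libraries. Most of this sum was Trdc, while Trgc1 and Trgc2 had at most 2.37 and 4.21 CPM in naïve cells. Values against naïve cells are therefore given with and without naïve replicate 4 where this library decides a call or a direction. The naïve libraries also held markers of other cells. All 7 B cell markers were detected in them and summed to 592.5 to 1430 CPM, against 11.8 to 20.4 CPM in media and 6.46 to 8.28 CPM with lactate. The 10 myeloid and dendritic markers summed to 478 to 1478 CPM in naïve cells, against 1.88 to 3.24 CPM in media and 1.83 to 4.61 CPM with lactate, where Siglech and Xcr1 had no count in either activated group and Clec9a had none with lactate. The 5 red cell markers in the table summed to 85.1 to 3495 CPM in naïve cells and to at most 1.90 CPM in an activated library, and the 2 NK cell markers to 3.13 to 8.00 CPM against at most 0.717 CPM. The gamma-delta markers went different ways between media and lactate. Mean Trdc was 100.2 CPM in media and 71.1 CPM with lactate, while Trgc1 had 1.15 and 3.44 CPM and Trgc2 2.99 and 5.87 CPM. Of the 4 CD4+ T cell markers, Cd4 had 11.2 to 27.1 CPM in naïve cells and at most 0.990 CPM in any activated library, while Zbtb7b had 22.1 ± 6.44, 47.4 ± 5.31 and 81.4 ± 5.79 CPM in naïve, media and lactate cells (mean ± SD, n = 4 each). Their sum, mostly Zbtb7b in activated cells, was 44.3 to 76.5 CPM in naïve cells, 48.0 to 60.7 CPM in media and 83.7 to 96.6 CPM with lactate. The part of other cells in the differences between groups was not tested. In bulk RNA, fewer cells of a type and less RNA per cell cannot be told apart.

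Calls required an adjusted p no larger than 0.01 in edgeR's quasi-likelihood test, with Benjamini-Hochberg adjustment over the whole table. Comparisons of media with naïve cells, lactate with naïve cells and lactate with media share samples in pairs, so their values are given side by side and are not independent of each other. Of the 9 genes, 5 were called between media and naïve cells, 3 higher and 2 lower. Among all tested genes, 57.5% were called in that comparison, 28.5% higher and 29% lower. For 5 of the 9 the samples of these groups did not overlap, against 61.2% of all genes. Between lactate and naïve cells 2 of the 9 were called, 1 higher and 1 lower, where 65% of all genes were called, 33% higher and 32% lower, and 2 of the 9 did not overlap, against 67.8%. Between lactate and media 3 of the 9 were called, all lower. In all tested genes 25.1% were called in that comparison, 13.9% higher and 11.1% lower. For 4 of the 9 there was no overlap between the samples, against 44.7% of the table. These shares lie near or below the background or rest on few genes, so the results below are those of the single genes. The median log2 fold change of the 9 was 0.08 in media against naïve cells, -0.17 in lactate against naïve cells and -0.26 in lactate against media, where the median of all tested genes was -0.03, 0.01 and -0.0016.

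**Figure D1:**
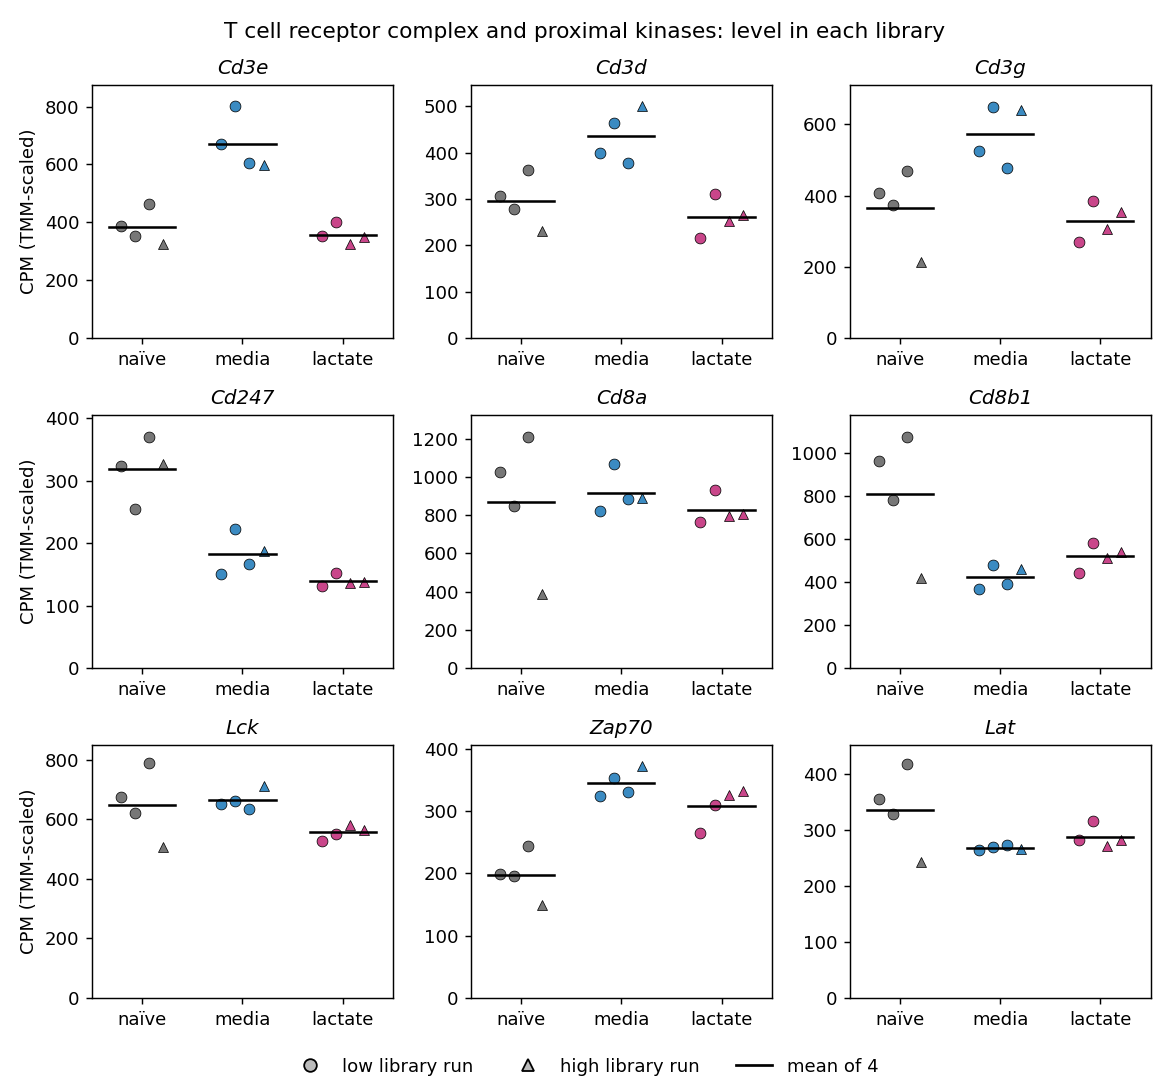
Level of each of the 9 genes in each library, in TMM-scaled CPM, with 4 points per group (circles, low run of library numbers; triangles, high run) and a line at the mean. For Cd3e, Cd3d and Cd3g all media samples lie above all naïve and all lactate samples, and for Cd247 all naïve samples lie above all activated samples.

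Cd3e, Cd3d and Cd3g, which encode the epsilon, delta and gamma chains of CD3, were higher in cells activated in media than in cells activated with lactate, and the lactate samples of each overlapped those of naïve cells. Cd3e had 386, 354, 464 and 325 CPM in naïve replicates 1 to 4. The media replicates 1 to 4 had 671, 801, 605 and 599 CPM. With lactate the values were 353, 400.1, 324 and 349 CPM. Every media sample was thus above every naïve and every lactate sample, and the naïve and lactate samples overlapped. Cd3e was 1.75-fold higher in media than in naïve cells (log2 fold change 0.81, standard error 0.13, adjusted p = 0.000126). Against media, lactate lowered it 1.88-fold (log2 fold change -0.91, standard error 0.13, adjusted p = 0.000269). Between lactate and naïve cells the log2 fold change was -0.10, with a 95% interval from -0.38 to 0.18 (adjusted p = 0.499). With single libraries left out it ran from -0.23, without naïve replicate 2, to -0.08, and it was -0.18 without naïve replicate 4 (adjusted p = 0.214).

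The delta chain followed the same order of groups. Cd3d had 306, 279, 363 and 231 CPM in naïve replicates 1 to 4. In media it had 399, 465, 378 and 501 CPM. With lactate it had 216, 311, 252 and 265 CPM. The lowest media sample lay just above the highest naïve sample and clearly above the highest lactate sample. Cd3d was higher in media than in naïve cells by 0.56 on the log2 scale (adjusted p = 0.00512, standard error 0.15). It was 1.67-fold lower with lactate than in media (log2 fold change -0.74, standard error 0.15, adjusted p = 0.00233). The first of these calls was lost without naïve replicate 4 (log2 fold change 0.46, adjusted p = 0.0122), and likewise without naïve replicate 1 or 2, media replicate 2 or 4 or lactate replicate 3 or 4, with adjusted p from 0.0122 to 0.0341. Against naïve cells, lactate gave -0.17 (95% interval from -0.50 to 0.15, adjusted p = 0.310). With single libraries left out this ran from -0.29, without naïve replicate 2, to -0.09, without lactate replicate 1, and it was -0.28 without naïve replicate 4 (adjusted p = 0.0841).

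Cd3g had 408, 374, 470.5 and 214 CPM in naïve replicates 1 to 4, of which the last is far below the rest. In media it had 524, 649, 477 and 639.9 CPM. The lactate values were 270.4, 384, 307 and 354 CPM. Media samples again lay above all others, the closest pair being 470.5 CPM in naïve replicate 3 and 477 CPM in media replicate 3. The log2 fold change of lactate against media was -0.80 (standard error 0.21, adjusted p = 0.00910), a 1.74-fold lower level that passed the threshold narrowly. This call was lost when any media or lactate replicate, or naïve replicate 1 or 2, was left out, with adjusted p from 0.0109 to 0.0306 and log2 fold changes from -0.88 to -0.72. The difference between media and naïve cells was 0.64 (standard error 0.21, adjusted p = 0.0149) and was not called, with a 95% interval from 0.19 to 1.09. Without naïve replicate 4 it was 0.45 (adjusted p = 0.0159). Lactate against naïve cells gave -0.16 (95% interval from -0.61 to 0.29, adjusted p = 0.506). That value rests on naïve replicate 4, without which it was -0.35 (adjusted p = 0.0423), and without lactate replicate 1 it was -0.07. The intervals of the 3 genes thus do not show that lactate and naïve levels are equal.

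The lower levels with lactate were present in both runs of library numbers and in each donor that gave both activated conditions. In the low run the log2 difference between lactate and media was -0.87 for Cd3e, -0.67 for Cd3d and -0.76 for Cd3g. In the high run, which holds 1 media library, it was -0.83, -0.95 and -0.96. In the 3 donors with both conditions Cd3e differed by -0.93, -0.60 and -0.78, Cd3d by -0.88, -0.28 and -0.92, and Cd3g by -0.95, -0.31 and -0.86. The donor with the smallest differences was the same for all 3 genes. With the donor as a replicate block in the model of all 12 libraries, where the naïve libraries form a level of their own, none of the 9 genes was called: adjusted p was 0.0109 for Cd3e, 0.0381 for Cd3d and 0.106 for Cd3g. With the donor block fitted to the 8 activated libraries only, a setting chosen after seeing the data, adjusted p was 0.000902, 0.00519 and 0.00432, and these 3 genes were called. Of the bases in exons of Cd3e, 3.31% overlap Gm48719 on the opposite strand, while Cd3d and Cd3g overlap no other gene.

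The zeta chain went another way. Cd247 had 324, 255, 370.5 and 327 CPM in naïve replicates 1 to 4. In media it had 151, 223, 167 and 188 CPM. With lactate it had 131, 153, 136 and 138 CPM. All activated samples lay below all naïve samples, and the media and lactate samples overlapped. Cd247 was 1.75-fold lower in media than in naïve cells (log2 fold change -0.81, adjusted p = 0.000164). With lactate it was 2.29-fold lower than in naïve cells (-1.19, standard error 0.14, adjusted p = 5.01e-06). Between lactate and media the difference of -0.38 did not pass the threshold (95% interval from -0.68 to -0.09, adjusted p = 0.0377). Without naïve replicate 4 the differences from naïve cells were -0.80 in media and -1.19 with lactate.

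The counts of Cd247 are uncertain, because 56.4% of the bases in its exons overlap Pou2f1 on the opposite strand and whether featureCounts used the strand is not stated. A further 3.87% overlap Gm16565 on the same strand. Pou2f1, which encodes the transcription factor OCT-1, had 75.2 ± 12.6 CPM in naïve cells, 73.5 ± 18.8 CPM in media and 44.5 ± 7.96 CPM with lactate (mean ± SD, n = 4 each). Its log2 fold change was -0.03 in media against naïve cells (adjusted p = 0.892) and -0.72 in lactate against media (adjusted p = 0.0104). Where reads of the 2 genes were not separated by strand, they cannot be told apart.

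**Figure D2:**
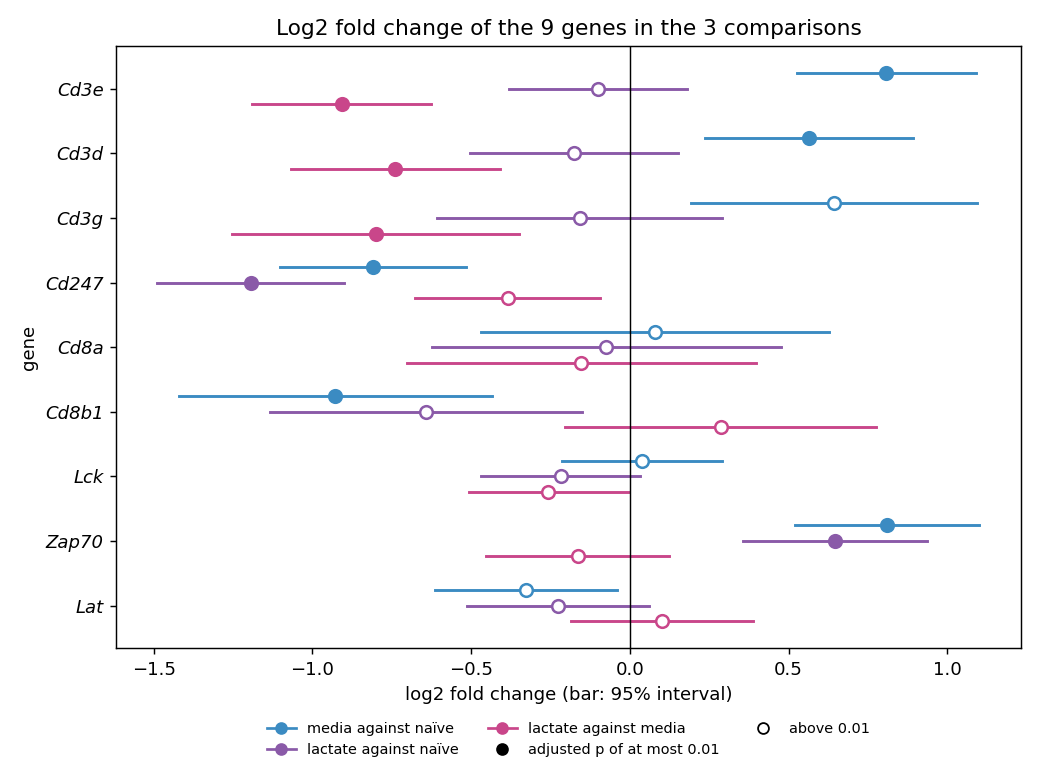
Log2 fold change of each of the 9 genes in the 3 comparisons, with 95% intervals from edgeR (filled points, adjusted p of at most 0.01). Cd3e, Cd3d and Cd3g lie above 0 in media against naïve cells and below 0 in lactate against media, and their intervals for lactate against naïve cells span 0.

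The co-receptor is a pair of chains, the alpha chain from Cd8a (ENSMUSG00000053977, chr6:71373427-71379173) and the beta chain from Cd8b1 (ENSMUSG00000053044, chr6:71322788-71337494), both on the plus strand with start sites 50639 bases apart. Cd8a had 1025, 849, 1208 and 388 CPM in naïve replicates 1 to 4. In media it had 821, 1068, 886 and 891 CPM, and with lactate 766, 931, 796 and 804 CPM. All groups overlapped, and naïve replicate 4 had the lowest value of all. None of the comparisons called Cd8a: the log2 fold change was 0.08 in media against naïve cells (95% interval from -0.47 to 0.63, adjusted p = 0.797), -0.07 in lactate against naïve cells (-0.62 to 0.48, adjusted p = 0.803) and -0.15 in lactate against media (-0.70 to 0.40, adjusted p = 0.672). Without naïve replicate 4 the first turned to -0.17 (adjusted p = 0.254).

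Cd8b1 differed between naïve and activated cells. It had 962, 780, 1076 and 421 CPM in naïve replicates 1 to 4. In media it had 369, 479, 393 and 462 CPM. With lactate it had 443, 583, 509.9 and 541 CPM. Naïve replicates 1 to 3 were above all activated samples, and naïve replicate 4 was within the range of the media samples. Cd8b1 was 1.90-fold lower in media than in naïve cells (log2 fold change -0.93, standard error 0.23, adjusted p = 0.00287). The call was lost without media replicate 1 (adjusted p = 0.0111) or media replicate 3 (0.0104), and without naïve replicate 4 the log2 fold change was -1.15 (adjusted p = 1.08e-05). The difference between lactate and naïve cells was -0.64 (95% interval from -1.13 to -0.15, adjusted p = 0.0211), and without naïve replicate 4 it was -0.86 and was called (adjusted p = 8.93e-05). Lactate against media gave 0.29 (95% interval from -0.20 to 0.78, adjusted p = 0.343).

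Lck (ENSMUSG00000000409, chr4:129548344-129573641, minus strand) encodes the Src family kinase that is bound to CD8. It had 675, 621, 788 and 508 CPM in naïve replicates 1 to 4. In media it had 653, 662, 635 and 712 CPM, and with lactate 528, 551, 583 and 566 CPM. The lactate samples were all below the media samples, with both groups within the range of naïve cells. The log2 fold change of lactate against media was -0.26 (95% interval from -0.51 to -0.0046) and did not pass the threshold (adjusted p = 0.0977). The exact permutation test of the single gene gave its smallest possible two-sided p of 0.0286. That p follows from the lack of overlap, which 44.7% of all genes had in this comparison. Media against naïve cells gave 0.04 (95% interval from -0.21 to 0.29, adjusted p = 0.788). Lactate against naïve cells gave -0.22 (-0.47 to 0.03, adjusted p = 0.105), and -0.33 with a call without naïve replicate 4 (adjusted p = 0.00580).

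Zap70 (ENSMUSG00000026117, chr1:36761798-36782818, plus strand), the kinase that docks on the phosphorylated CD3 and zeta tails, was higher in both activated groups than in naïve cells. It had 198, 195, 244 and 149 CPM in naïve replicates 1 to 4. The media values were 324, 353, 329.8 and 372 CPM, and those with lactate were 264, 309.7, 326 and 331 CPM. No activated sample was as low as a naïve sample, and media and lactate overlapped. Zap70 was 1.75-fold higher in media than in naïve cells (log2 fold change 0.81, adjusted p = 0.000152). It was 1.57-fold higher with lactate than in naïve cells (0.65, standard error 0.13, adjusted p = 0.000723). Without naïve replicate 4 these were 0.69 and 0.53, and both calls remained. Lactate against media gave -0.16 (95% interval from -0.45 to 0.12, adjusted p = 0.355).

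Lat (ENSMUSG00000030742, chr7:126363824-126369570, minus strand) encodes the membrane adaptor phosphorylated by ZAP-70. It had 356, 328, 417 and 243 CPM in naïve replicates 1 to 4. In media the values were close together at 264, 269, 273 and 265 CPM, and with lactate they were 282, 315, 271 and 281 CPM. Naïve replicate 4 was the lowest of all samples and the other naïve samples were the highest. No comparison called Lat: the log2 fold change was -0.33 in media against naïve cells (95% interval from -0.61 to -0.04, adjusted p = 0.0424), -0.23 in lactate against naïve cells (-0.51 to 0.06, adjusted p = 0.139) and 0.10 in lactate against media (-0.18 to 0.39, adjusted p = 0.578). Without naïve replicate 4 Lat was called lower than in naïve cells both in media (-0.46, adjusted p = 0.000592) and with lactate (-0.36, adjusted p = 0.00294). A microRNA gene lies within 2.71% of the exon bases of Lat and another within 0.854% of those of Lck.

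Ratios between 2 members within a library do not depend on how libraries are scaled. In the 3 comparisons, 4 such ratios were tested by enumerating all 70 label arrangements of 4 and 4 libraries (exact permutation test, two-sided, smallest possible p = 0.0286, adjusted over the 12 tests). The arrangements treated the libraries as unpaired, although 3 donors gave both activated conditions. An adjusted p of 0.0429 for a ratio stands for the smallest possible p, which follows from the lack of overlap. It lies above the threshold for calls, which the smallest p cannot meet. Among single genes, 61.2% had no overlap in media against naïve cells, 67.8% in lactate against naïve cells and 44.7% in lactate against media. The share of other gene pairs without overlap was not tested, so the separations below are described and not set apart. The ratio of Cd8b1 to Cd8a counts was 0.891 to 1.08 in naïve cells, 0.444 to 0.519 in media and 0.578 to 0.673 with lactate. The 3 groups were thus fully apart, with naïve cells highest, media lowest and lactate between them. The log2 difference was -1.04 in media against naïve cells, -0.60 in lactate against naïve cells and 0.44 in lactate against media, each with an adjusted p of 0.0429 in the exact permutation test. Naïve replicate 4, low in both genes, had the highest ratio (1.08), and without it the first of these differences was -0.98 and the second -0.54.

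The ratio of Cd247 to Cd3e counts was 0.722 to 1.01 in naïve cells, 0.225 to 0.314 in media and 0.371 to 0.420 with lactate, again without overlap. Media against naïve cells gave a log2 difference of -1.62, lactate against naïve cells -1.09 and lactate against media 0.53 (exact permutation test, adjusted p = 0.0429 for each). The numerator carries the uncertainty of the counts of Cd247. For Zap70 to Lck the ratio was 0.293 to 0.314 in naïve cells, 0.497 to 0.534 in media and 0.4996 to 0.586 with lactate. Both activated groups were above naïve cells, by 0.78 and 0.86 on the log2 scale (exact permutation test, adjusted p = 0.0429 for each), while media and lactate overlapped (log2 difference 0.09, adjusted p = 0.152 in the same test).

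The ratio of Cd3g to Cd3d, the divergent neighbors, was 1.26 to 1.396 in media and 1.22 to 1.34 with lactate. In naïve cells it was 1.33, 1.34 and 1.296 in replicates 1 to 3 and 0.927 in replicate 4. Of the 4 ratios it differed least between groups, with log2 differences of -0.06 in lactate against media (adjusted p = 0.274 in the exact permutation test), 0.12 in media against naïve cells (0.717) and 0.06 in lactate against naïve cells (0.943). Without naïve replicate 4 the last 2 turned to -0.01 and -0.07.

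**Figure D3:**
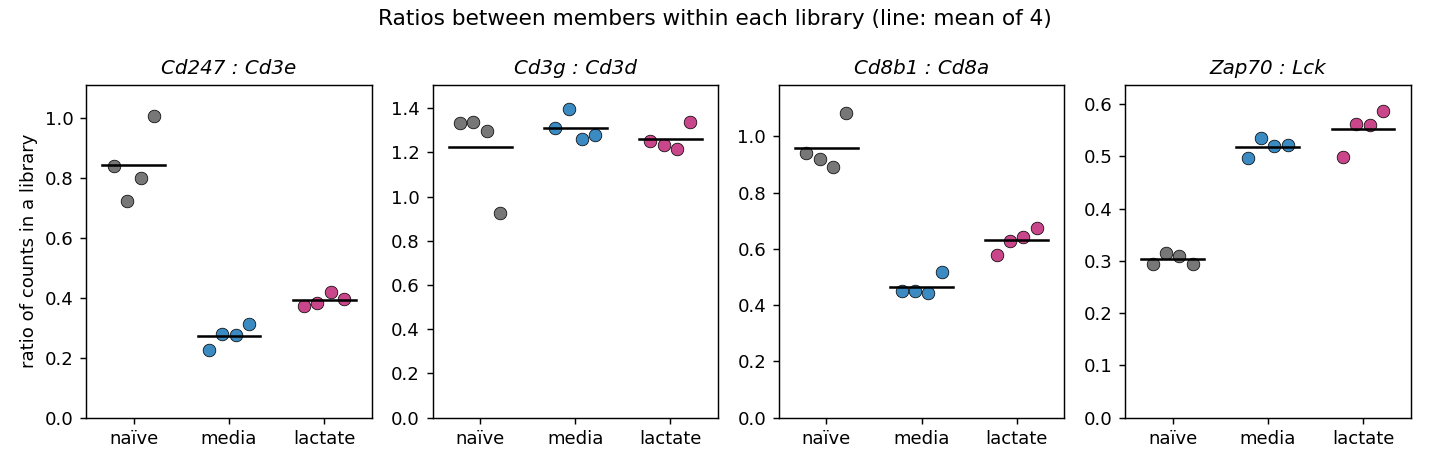
Ratio of the counts of 2 members within each library (vertical axis, no unit) for the 4 naïve, 4 media and 4 lactate libraries, with a line at the mean. The Cd8b1 to Cd8a and Cd247 to Cd3e ratios separate all 3 groups, Zap70 to Lck separates naïve from activated cells, and for Cd3g to Cd3d naïve replicate 4 lies alone at 0.927.

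Levels were compared between genes in TPM, which divide the counts by the length of the gene and scale each library to the same total. Cd8b1 had the highest mean level of the 9 in each group, with 1854 ± 642 TPM in naïve cells, 994 ± 110 TPM in media and 1104 ± 122 TPM with lactate (mean ± SD, n = 4 each). Cd247 had the lowest, with 205 ± 34.4, 118 ± 19.8 and 82.6 ± 6.99 TPM, a rank that carries the uncertainty of its counts from the overlap with Pou2f1. In naïve cells the means fell in the order Cd8b1, Cd8a, Lck, Cd3d, Lat, Cd3g, Cd3e, Zap70 and Cd247, and only Cd3e (319 TPM) and Zap70 (224 TPM) among neighbors in this order did not overlap. In media Cd8b1, Cd8a, Cd3d and Lck overlapped as neighbors, from 994 down to 787 TPM, and were followed without overlap by Cd3g and Cd3e (606 and 569 TPM), Zap70 (399 TPM), Lat (336 TPM) and Cd247. With lactate the 4 highest, Cd8b1, Cd8a (716 TPM), Lck (599 TPM) and Cd3d (454 TPM), were each apart from the next. Lat, Zap70, Cd3g and Cd3e followed with overlap from neighbor to neighbor, from 328 to 276 TPM, and then Cd247. The CD3 chains thus stood above Zap70 and Lat in media and overlapped with them as neighbors with lactate, Cd3d excepted.

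The genes nearest to the mean profile of 3 sets of members were sought among 10304 other genes with a mean of at least 5 CPM. The measure was the root mean square difference of log2 CPM over the 12 libraries after centering each gene. A mean profile need not be that of any member. In media against naïve cells, for example, Cd3e had a log2 fold change of 0.81 and Cd247 of -0.81. For the mean profile of Cd3e, Cd3d, Cd3g and Cd247 these were Selplg (0.11), Stat2 (0.12) and Fam3a (0.12), where the median of all genes searched was 0.59 and the 4 members themselves differed from their mean by 0.13 to 0.49. Selplg encodes the P-selectin ligand PSGL-1, and STAT2 is a signal transducer of type I interferon. All 3 were called lower with lactate than in media, by -0.60, -0.73 and -0.72 on the log2 scale (adjusted p = 0.00109, 0.00135 and 0.000471). None of the 3 was called between media and naïve cells (adjusted p = 0.0129, 0.482 and 0.0146). For Cd8a and Cd8b1 the nearest were Mta3 (0.15), Slc44a2 (0.16) and Ldah (0.16), where the members themselves differed from their mean by 0.22. For Lck, Zap70 and Lat they were Yipf1 (0.09), Fntb (0.09) and Taf1b (0.09), where the members differed from their mean by 0.12 to 0.29. In each set the genes found thus lay nearer to the mean than any member did. None of these 6 was called in lactate against media or in media against naïve cells. All of these genes were picked for likeness to a mean profile over the same 12 libraries. Whether they were called thus follows in large part from that choice and is no separate result.

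A further 46 genes of T cell receptor signaling, listed by role, were all tested. The list was made with earlier results of these data known. Between lactate and media 14 were called, 1 higher and 13 lower, beside 25.1% of all tested genes (13.9% higher, 11.1% lower). The median log2 fold change was -0.39 against -0.0016 over all genes. For 29 the samples did not overlap, beside 44.7% of all genes. With the replicate block by donor in the 12-library model 4 were called (Ptprc, Txk, Fyb and Lax1), and with that block on the activated libraries 18. The count of 14 ran from 8 to 27 when single libraries were left out. It was 8 without media replicate 2 or lactate replicate 3, 9 without media replicate 3 or lactate replicate 1 or 4, and 27 without naïve replicate 4. Between media and naïve cells 22 were called, 7 higher and 15 lower, with a median of -0.21, where 57.5% of all genes were called (28.5% higher, 29% lower). Between lactate and naïve cells 28 were called, 2 higher and 26 lower, with a median of -0.53, where 65% of all genes were called (33% higher, 32% lower). Both totals lie below the share over all genes, though most of the genes called were lower. Counts by role below stand beside the shares over all genes, so a role with few genes is described and not set apart. The 2 higher ones in the last comparison were Malt1 (0.79) and Ubash3b (2.48).

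The antigen-binding chains themselves were not called between lactate and media, although for Trac this depended on the setting. Trac, the constant region of the alpha chain, stood at 384 ± 36.5 CPM in media and at 292 ± 28.8 CPM with lactate (mean ± SD, n = 4 each), and its log2 fold change of -0.40 had an adjusted p of 0.0104, above the threshold. It was called in 13 of 27 alternatives, among them DESeq2 (0.000318), the likelihood ratio test (0.00744), voom (0.00926), the 3 other scalings, the 2-group fit and the run term, and also without naïve replicate 2, 3 or 4 (0.00765 to 0.00902). It was not called with any of the blocks, with no filter, or without naïve replicate 1 or any media or lactate replicate, and its adjusted p over the alternatives ran from 0.000318 to 0.0464. The beta constant regions Trbc1 (-0.37, 95% interval from -0.71 to -0.04) and Trbc2 (-0.30, 95% interval from -0.62 to 0.01) had adjusted p of 0.0714 and 0.115. None of the 3 was called between media and naïve cells, and all 3 were called lower in lactate than in naïve cells (-0.47, -0.67 and -0.53). Only uniquely mapped reads were counted, so reads that fit both of the near-identical Trbc1 and Trbc2 would be missing from their counts. Ptprc, which encodes the phosphatase CD45 that acts on LCK, stood at 2093 ± 321 CPM in media and at 1289 ± 48.0 CPM with lactate and fell by 0.70 on the log2 scale (adjusted p = 0.000345).

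Among the kinases, all 4 listed genes were called lower in media than in naïve cells, where 29% of all genes were called lower. The largest decreases were in Tec (-1.06, adjusted p = 4.12e-05) and Txk (-1.01, adjusted p = 0.00449). Tec and Txk are kinases of the Tec family. Txk was the only 1 of the 4 called between lactate and media: its level was 75.2 ± 36.0 CPM in media against 32.2 ± 7.30 CPM under lactate (log2 difference -1.22, adjusted p = 0.00347). That call was lost without lactate replicate 1, 3 or 4 (adjusted p from 0.0120 to 0.0132), and the call of Txk between media and naïve cells was lost without media replicate 1 or 3 (0.0149 and 0.0147). For Tec, lactate against media gave 0.51 on the log2 scale (95% interval from 0.19 to 0.83, adjusted p = 0.0159).

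Of the 12 adaptors, 3 were called lower and none higher with lactate than in media, and 9 were not called. The share called is near the 25.1% among all genes, where 11.1% were called lower and 13.9% higher. The largest decreases were those of Trat1, a transmembrane adaptor that associates with the receptor, and of Fyb, the adaptor ADAP that links the receptor to integrins. Trat1 was low in all activated cells, with 4.22 ± 1.58 CPM in media and 0.858 ± 0.609 CPM under lactate (a log2 change of -2.28, standard error 0.55, adjusted p = 0.00576). Its call was lost without lactate replicate 1, 3 or 4 or media replicate 2, 3 or 4 (adjusted p from 0.0137 to 0.0193). Fyb went from 368 ± 125 CPM in media to 107 ± 12.6 CPM with lactate (-1.78, standard error 0.20, adjusted p = 8.23e-05), and no single library decided its call. Between media and naïve cells 6 adaptors were called, 5 lower and 1 higher, where 57.5% of all genes were called, 28.5% higher and 29% lower. The decreases were largest in Trat1 (-3.16, adjusted p = 9.68e-05) and Grap2 (-1.01, adjusted p = 5.65e-06), and the increase was that of Tespa1 (1.25, adjusted p = 0.00630), which was lost without any media replicate, naïve replicate 1 or 2, or lactate replicate 3 or 4 (0.0112 to 0.0163).

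Downstream enzymes and scaffolds numbered 8, of which 3 were called lower with lactate than in media and 5 were not called. Among all genes 11.1% were called lower there. Plcg1, the phospholipase recruited to LAT, went from 369 ± 36.0 CPM in media to 198 ± 13.6 CPM with lactate (a log2 change of -0.89, adjusted p = 0.000317), and no single library decided its call. Between media and naïve cells 3 of the 8 were lower and 1 was higher, beside 29% and 28.5% of all genes. The largest decreases were in Itpkb (-0.98, adjusted p = 2.22e-05) and Prkcq (-0.85, adjusted p = 0.00171), and the higher gene was Malt1 (1.53, adjusted p = 8.91e-06). Malt1 encodes a protease of NF-κB signaling. It was also among the 3 called lower with lactate than in media (-0.74, adjusted p = 0.00571), a call lost in 7 of 27 alternatives.

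Negative regulators were the largest group, with 18 genes, of which 5 were called lower and 1 higher with lactate than in media and 12 were not called. Among all genes 11.1% were called lower and 13.9% higher. Cblb, a ubiquitin ligase that restrains receptor signaling, had 202 ± 131 CPM in naïve cells, 685 ± 105 CPM in media and 289 ± 21.1 CPM with lactate. Its log2 fold change was 1.77 in media against naïve cells (adjusted p = 0.000305) and -1.25 in lactate against media (adjusted p = 0.00745), and the second call was lost without any media or lactate replicate (adjusted p from 0.0109 to 0.0259). Lax1, an inhibitory adaptor, was called lower in both comparisons (-1.12 and -1.20, adjusted p = 0.000215 and 0.000569). Dgka and Pag1 had the largest decreases between naïve cells and media (-1.58 and -1.36, adjusted p = 3.95e-06 and 5.70e-06). Ubash3b, a phosphatase that acts on ZAP-70, was the exception: it had 32.4 ± 9.00 CPM in naïve cells, 78.4 ± 13.1 CPM in media and 180.9 ± 33.7 CPM with lactate, without overlap between the groups. It rose by 1.28 on the log2 scale in media against naïve cells (adjusted p = 0.000180) and by 1.21 in lactate against media (adjusted p = 0.000928).

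**Figure D4:**
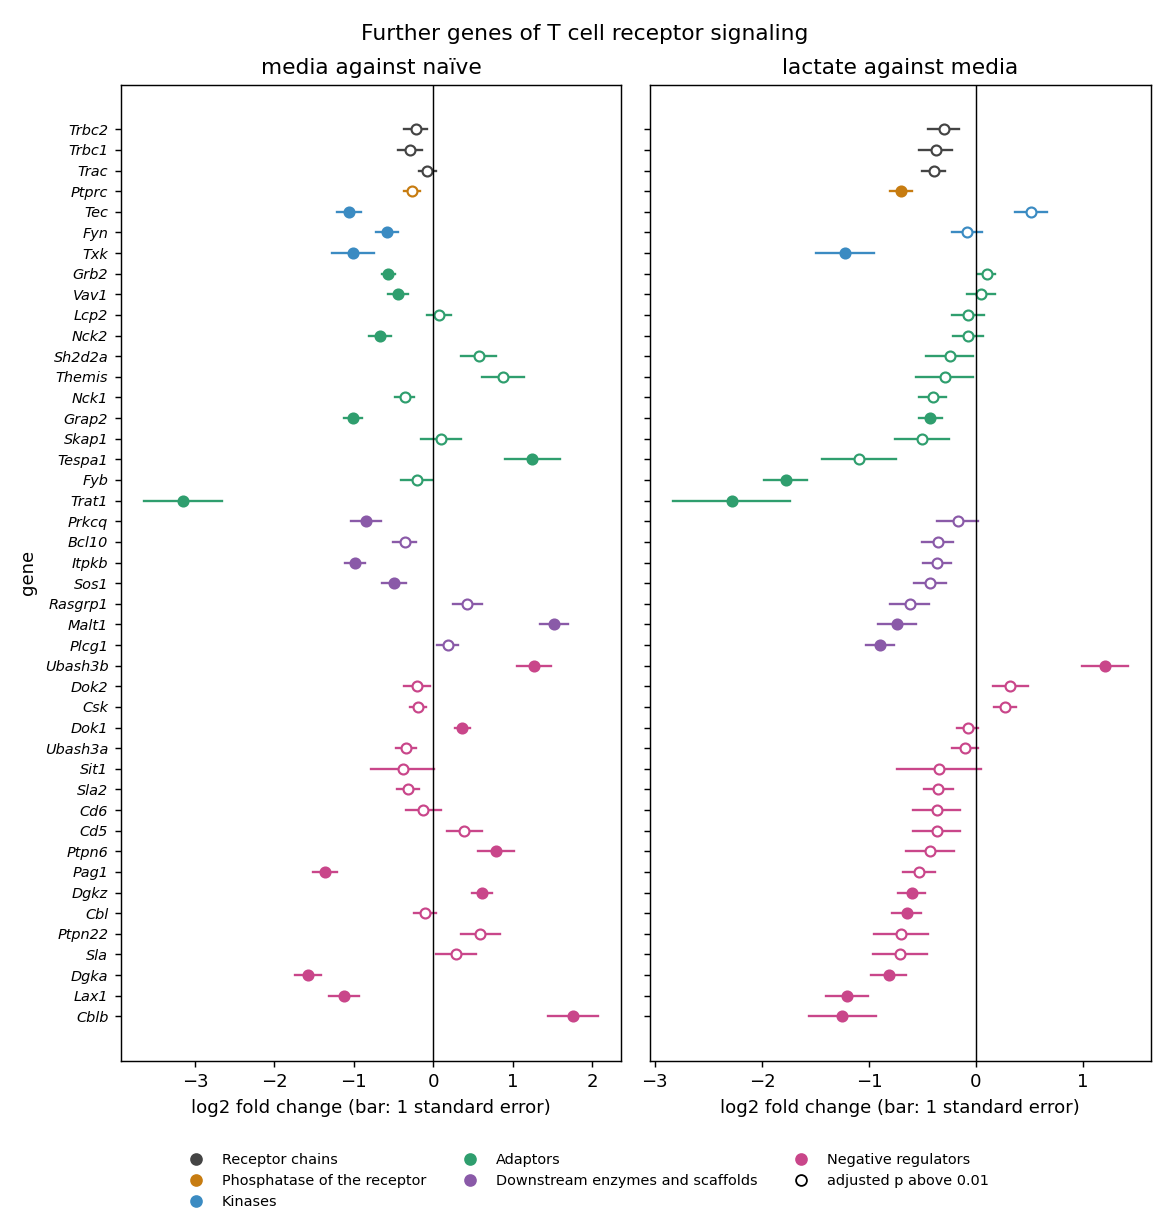
Log2 fold change with 1 standard error for 44 of the 46 further genes of T cell receptor signaling in media against naïve cells (left) and lactate against media (right), colored by role (filled points, adjusted p of at most 0.01). On the right 12 filled points lie below 0, and Ubash3b lies above 0 at 1.21.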

How the data were processed

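The data are RNA-seq of 12 mouse CD8+ T cell libraries. The deposited table holds raw counts per gene and the gene length. By the submitters' processing notes and the methods, the authors converted base calls with bcl2fastq 2.20.0.422, aligned reads to GRCm38 with STAR 2.7.5b, dropped PCR duplicates and ran featureCounts on uniquely mapped reads over Ensembl exons. The library kit marks the strand, but whether the counting used it is not given in the sources used here. Of the genes, 13 have no symbol, and 0 columns were of samples outside the series. Positions and exon overlaps came from GENCODE M21 (GRCm38), whose exon lengths equal the table's for all 9 members, and promoters from RefSeq (GRCm38.p6).

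In R 4.3.3, genes had to reach 1 CPM in at least 3 libraries, counts were scaled by TMM, and edgeR 4.0.16 fitted a quasi-likelihood model of the 3 groups without a block to all 12 libraries, after the methods of the study. Tests were two-sided and adjusted by Benjamini-Hochberg over all genes, and calls were made at 0.01. The standard error of a log2 fold change was derived from its F statistic, as the change over the root of F. The biological coefficient of variation was 23.5%. CPM were scaled by TMM. TPM used the lengths of the table. Scripts were tested on simulated data. Replicate pairs differed by more than sampling noise, so no library was counted as a repeat.

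Groups and replicate numbers came from the sample titles. Donor tags restart between the low (8 libraries) and high (4 libraries) runs of library numbers and were read within a run, so that activated cells come from 5 donors, as the record states, 3 of them with both conditions. The deviations from the group means of 2 libraries of 1 donor correlated at 0.374, 0.211 and 0.553 across genes, and those of libraries with the same title number at 0.374, 0.297, 0.0038 and 0.553. By these tags 3 donors pair a media with a lactate library. The 0.297, however, came from libraries of different donors and exceeded the 0.211 of 1 donor. These correlations therefore do not settle how strongly donors pair the samples. The record gives distinct donors for the naïve libraries.

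The members and lists were chosen with earlier results of these data known. Named are all 9 members, in each role of the pathway list the 2 largest changes in each direction among genes called in lactate against media and in media against naïve cells, and the 3 nearest genes to each of 3 mean profiles. The pathway list holds 2 genes that are counted but not reported here by name. Trac, Trbc1, Trbc2, Pou2f1 and the values of Tec and Malt1 between lactate and media were named after their values were seen. As alternatives, DESeq2 1.42.0, limma 3.58.1 (voom) and the likelihood ratio test of edgeR were run, with 3 other scalings, no filter, a filter of 10 counts in each library, fits of 2 groups, blocks by title number or donor, a run term, an adjusted p of 0.05, and leaving out each library.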

Additional observations from a re-analysis of the deposited data

How the results depend on the processing

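Between lactate and media 3 of the 9 genes were called, and 26 of 27 alternatives gave 2 to 4. The exception was the replicate block by donor with the naïve libraries as a level of their own, which called 0 of the 9 and 992 of all genes and gave log2 fold changes of -0.77 for Cd3e, -0.70 for Cd3d and -0.71 for Cd3g. With the donor block fitted to the 8 activated libraries only, an alternative chosen after seeing the data, 3 members and 3654 genes were called. With the donor block and naïve replicate 4 left out, also chosen after seeing the data, 3 members and 3201 genes were called. The cause was not tested. The replicate block by title number called 2, and Cd3g missed the threshold (0.0176), as it did with upper quartile scaling (0.0106) and a run term (0.0141). The range of adjusted p over the 27 alternatives was 7.3e-11 to 0.0109 for Cd3e, 9.74e-06 to 0.0381 for Cd3d and 0.000474 to 0.106 for Cd3g.

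Leaving out single libraries gave 2 to 3 members between lactate and media, 4 to 5 between media and naïve cells and 2 to 5 between lactate and naïve cells, the 5 without naïve replicate 4. In media against naïve cells, values near 0 changed sign: Lck was -0.0229 with DESeq2, -0.0229 with its size factors, -0.00209 with 10 counts in each library and -0.0692 to 0.0703 with libraries left out, and Cd8a was -0.17 to 0.21 with libraries left out. In lactate against naïve cells Cd8a turned to 0.0401 with voom, to 0.0889 with a run term and ran from -0.33 to 0.0459 with libraries left out. The ratio of Cd3g to Cd3d ran from -0.0133 to 0.16 in media against naïve cells and from -0.0727 to 0.10 in lactate against naïve cells. Of the pathway list, 24 genes were called between lactate and media with the 2 groups alone or an adjusted p of 0.05. All genes called there ran from 992 with the planned donor block to 5461 at an adjusted p of 0.05, and with 1 library removed the count lay between 2252 (media replicate 2 removed) and 4845 (naïve replicate 4 removed).

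With 4 libraries a group, an exact test of a single gene cannot give a two-sided p below 0.0286. TPM, which carry no TMM scaling, also move the groups: mean Lat was lower with lactate in TPM (328 against 336) and higher in CPM, and the media and lactate samples of Cd247 and Zap70 overlapped in CPM but not in TPM.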
